A study of Mus musculus with 18 samples.

Results

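The genes described are 8 enzymes of phospholipid synthesis and remodelling, Lpcat1, Lpcat2, Lpcat3, Pcyt1a, Chka, Lpin1, Lpin2 and Pla2g7, out of 24059 gene symbols in the count tables. They were taken by symbol, and the transcript rows of a symbol were summed. RNA-seq covered 18 libraries in 6 groups of 3, all from macrophages grown out of the bone marrow of C57BL/6J mice. In the first table, untreated cells (no treatment) stood beside cells given lipopolysaccharide (LPS) alone. In the second table every group received LPS, and the groups were LPS alone, reconstituted high-density lipoprotein (rHDL) before LPS, cholesterol-loaded cells with LPS, and cholesterol-loaded cells with rHDL before LPS. The rHDL was CSL111, which joins APOA1 to soybean phosphatidylcholine at 1 to 150, and it was present for 20 h from day 8 and washed off before LPS. Loading used liposomes of cholesterol and the phosphatidylcholine POPC, given before rHDL. All cells had been differentiated for 7 days with L929-conditioned medium and then moved to medium with less of it. The labels used here give neither the age and sex of the mice, nor the dose and time of LPS, nor whether replicates were separate cultures or animals, so p-values measure the spread between these libraries, which may be technical. No group received phosphatidylcholine alone, without APOA1 and without cholesterol, so the effects of the lipid and of its partners cannot be told apart.

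Phosphatidylcholine, the main phospholipid of animal membranes, is made from choline by the Kennedy pathway. Choline kinase (Chka) phosphorylates choline, Pcyt1a activates it as CDP-choline, and the lipins (Lpin1 and Lpin2) turn phosphatidic acid into the diacylglycerol that receives it. In the Lands cycle, phospholipases remove an acyl chain and lysophosphatidylcholine acyltransferases (Lpcat1, Lpcat2 and Lpcat3) put another in its place. Lpcat1 is known for saturated chains and Lpcat3 for polyunsaturated chains, and Lpcat3 is a target of the sterol-sensing liver X receptors. Lpcat2 also makes platelet-activating factor, an inflammatory phospholipid, and Pla2g7 is the secreted enzyme that hydrolyses it and travels on lipoproteins.

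Only 4 of the 8 enzymes could be measured. Reads had been counted per transcript row, and of 6698 rows whose exon bases all lie in other rows too, 6697 held 0 counts, so reads that fall on bases shared by 2 or more rows were left out of the counts. The 3 Pcyt1a rows (mm10 chromosome 16, 32430921 to 32475065) had 441 of 5194 exon bases outside any other row and 43 counts in all 18 libraries. Chka (chromosome 19, 3851773 to 3894369) had 60 of 2687 such bases and 10 counts, Lpin1 (chromosome 12, 16535669 to 16589770) 243 of 5725 and 21 counts, and Lpin2 (chromosome 17, 71183978 to 71249818) 330 of 5868 and 3 counts. These 4 genes overlap only with their own other transcripts, and with all libraries kept none passed the filter on low counts. Most of the few Pcyt1a counts came from the untreated libraries (20, 11 and 5, against 3, 3 and 0 with LPS), and Lpin1 had 7, 7 and 5 counts untreated and 0 in each LPS library. With no filter both were called lower with LPS. Pcyt1a was also called lower when untreated replicate 3 or the first table's LPS replicate 1 was left out, where it passed the filter. These counts and calls come from the bases of single transcripts and give no level of the gene, and the 4 genes are not compared further. Lpcat1 (chromosome 13, 73467383 to 73514538, 14 exons) and Lpcat2 (chromosome 8, 92855350 to 92919279, 14 exons) had 1 row each and no shared base. Lpcat3 (chromosome 6, 124663104 to 124704716, 13 exons) shared 289 bases with Emg1 on the other strand and kept 88.4% of its exon bases. Pla2g7 (chromosome 17, 43568451 to 43612201, 12 exons) kept 92.7%, with its shared bases under 1700071M16Rik on the other strand.

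**Figure D1:**
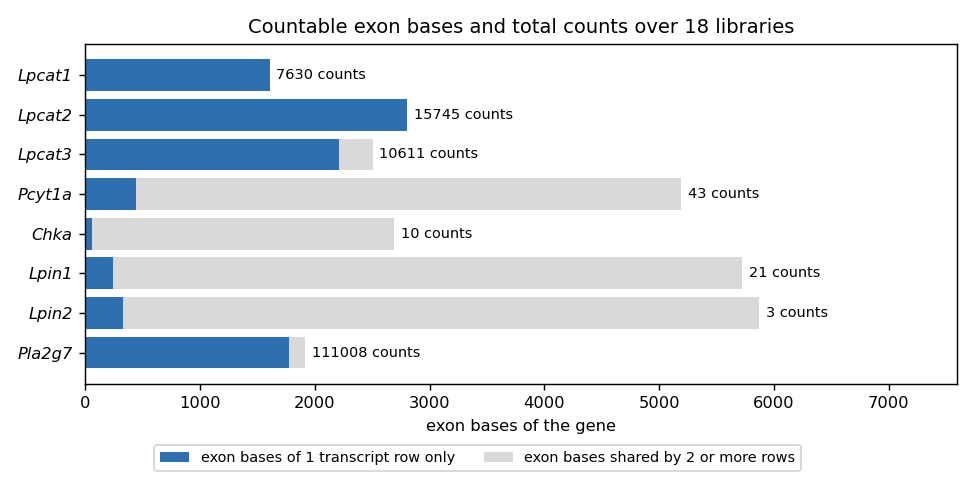
Exon bases of each of the 8 enzymes (horizontal axis, bases) that lie in 1 transcript row only (blue) or are shared by 2 or more rows (grey), with the total counts over all 18 libraries at the end of each bar. The bars of Lpcat1, Lpcat2, Lpcat3 and Pla2g7 are mostly or wholly blue and hold 7630 to 111008 counts, whereas Pcyt1a, Chka, Lpin1 and Lpin2 are mostly grey and hold 3 to 43.

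The windows of 250 bases before the RefSeq start (GRCm38.p6, 5′ to 3′) of the 4 measured enzymes are printed because their levels parted between treatments. Capitals mark each CCAAT (or ATTGG on the other strand) and each GC box GGGCGG (or CCGCCC).
Lpcat1, chr13:73466981-73467230, plus strand: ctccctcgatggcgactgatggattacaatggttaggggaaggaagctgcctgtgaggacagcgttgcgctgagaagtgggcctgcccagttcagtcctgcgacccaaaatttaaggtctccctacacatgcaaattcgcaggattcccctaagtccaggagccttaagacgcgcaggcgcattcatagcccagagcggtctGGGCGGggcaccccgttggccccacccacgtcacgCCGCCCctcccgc
Lpcat2, chr8:92855083-92855332, plus strand: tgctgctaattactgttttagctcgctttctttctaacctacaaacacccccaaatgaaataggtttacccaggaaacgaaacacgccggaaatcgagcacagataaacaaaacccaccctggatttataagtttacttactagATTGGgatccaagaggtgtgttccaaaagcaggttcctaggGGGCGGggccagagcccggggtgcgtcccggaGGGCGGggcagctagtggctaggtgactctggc
Lpcat3, chr6:124662854-124663103, plus strand: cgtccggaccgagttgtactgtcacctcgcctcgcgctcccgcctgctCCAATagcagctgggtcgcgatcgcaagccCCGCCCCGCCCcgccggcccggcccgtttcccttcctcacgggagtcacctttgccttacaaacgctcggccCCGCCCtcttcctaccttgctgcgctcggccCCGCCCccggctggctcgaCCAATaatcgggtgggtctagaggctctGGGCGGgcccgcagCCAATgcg
Pla2g7, chr17:43568201-43568450, plus strand: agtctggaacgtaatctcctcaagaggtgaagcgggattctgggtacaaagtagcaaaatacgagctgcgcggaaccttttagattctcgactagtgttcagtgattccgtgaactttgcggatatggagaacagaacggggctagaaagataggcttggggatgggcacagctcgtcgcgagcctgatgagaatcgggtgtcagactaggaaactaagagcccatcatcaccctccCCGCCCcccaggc

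The Lpcat3 window had a GC content of 70.0%, 3 CCAAT matches and 5 GC boxes. That of Lpcat1 had a GC content of 60.8%, no CCAAT match and 2 GC boxes. Lpcat2 (51.2% GC) had 1 CCAAT match, 2 GC boxes and 1 TATAAA, and Pla2g7 (52.8% GC) had 1 GC box and no CCAAT match. Over all 32851 windows of this length in the table, read on both strands, 33.8% held a CCAAT, 32.7% a GC box and 12.4% a TATAAA, and the median GC content was 52.4%. None of the 4 windows held CACGTG (6.02% of all windows), TGACTCA (4.46%) or TCACCCCAC (0.496%). A match describes letters in the window, not a bound site, and a missing match says nothing of a factor. The RefSeq start lay 152 bases before the first exon of the counted row for Lpcat1 and 17 bases before it for Lpcat2, and at the same base for Lpcat3 and Pla2g7.

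Libraries held 11450243 to 16835472 counts (first table) or 9464916 to 15607889 (second). Levels are CPM, the counts scaled to a common depth, with library sizes corrected by the trimmed mean of M values (TMM), differences are log2 fold changes with their standard error (SE) from edgeR, and a call is an adjusted p (Benjamini-Hochberg, over all genes tested) under 0.05. Of 8 macrophage markers, 7 had counts in every group, with a summed level of 5937 to 12050 CPM per library. Itgam was at 0, with 0.0641% of its exon bases to itself. Markers of lymphoid cells summed to at most 0.419 CPM per library. With library totals as the only scaling, the median of all genes moved from -0.05 to -0.77 for LPS, from 0.03 to 0.14 for rHDL, and from -0.03 to -0.20 for the difference between rHDL effects. The share of calls that were higher moved from 48.4% to 18.8% for LPS, from 49.5% to 66.3% for rHDL, from 41.8% to 27.2% for rHDL after loading, from 46.6% to 71.1% for loading, from 51.9% to 39.4% for loading in rHDL-treated cells and from 53.0% to 32.4% for the difference.

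Per kilobase of exon bases of their own, Pla2g7 was by far the most abundant of the 4 enzymes. In cells with LPS alone of the second table, Pla2g7 was at 275 ± 38.4 CPM per kilobase (SD, n = 3). On the same scale Lpcat2 was at 24.9 ± 3.86, Lpcat1 at 19.4 ± 0.761 and Lpcat3 at 18.1 ± 1.03. The library ranges of Lpcat1 (18.5 to 20.0) and Lpcat3 (17.5 to 19.3) overlapped, and Lpcat2 (21.5 to 29.1) lay above both. After rHDL the order of the lower 3 was different, with Lpcat2 at 18.9 ± 0.991, Lpcat3 at 15.97 ± 0.613 and Lpcat1 lowest at 9.62 ± 0.434. After loading, Lpcat3 led the acyltransferases at 24.2 ± 1.39, with its range of 23.4 to 25.8 overlapping the 19.7 to 23.5 of Lpcat1.

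With LPS, Lpcat1 rose by a factor of 1.71 and Lpcat2 by 2.13, of which the first was not called with library totals as the only scaling. Lpcat3 and Pla2g7 were called in neither direction. Macrophage markers summed to 8248 to 8795 CPM per library untreated and to 11360 to 12050 CPM with LPS. Cd14 averaged 1162 and 3816 CPM (log2 fold change 1.72) and Emr1 2920 and 3714 CPM (0.35). Fcgr1 (0.62) and Mertk (0.33) were also higher, while Csf1r (-0.12) and Cd68 (-0.13) were not called. Dendritic cell markers summed to 356 to 506 CPM untreated and 575 to 739 CPM with LPS. Stromal and endothelial markers summed to 118 to 144 and 86.4 to 117 CPM. The part of any of these cells was not tested. In bulk samples, a change in the number of cells of a type and a change in RNA per cell cannot be told apart, here and in what follows. Lpcat1 was at 30.2, 34.8 and 28.1 CPM in the untreated libraries and at 58.0, 48.5 and 52.9 CPM with LPS. Every LPS library lay above every untreated one (log2 fold change 0.77 ± 0.10, adjusted p = 4.76e-05, edgeR).

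Lpcat2, the enzyme of platelet-activating factor synthesis, was at 52.1, 47.3 and 69.9 CPM untreated and at 115, 118 and 126 CPM with LPS. These groups did not overlap either (1.09 ± 0.13, adjusted p = 1.64e-05). Lpcat3 was at 53.4, 49.9 and 48.5 CPM untreated and at 52.9, 51.5 and 54.3 CPM with LPS, so the groups overlapped (0.06 ± 0.08, adjusted p = 0.482). Pla2g7 was at 535, 527 and 633 CPM untreated and at 564, 664 and 622 CPM with LPS, and these overlapped as well (0.13 ± 0.09, adjusted p = 0.244).

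The 2 called of 4 tested members stand beside 72.9% of all 9576 genes called with LPS in either direction, and 35.3% called higher. The members' median difference was 0.45 and that of all genes -0.05. The direction for 2 members hung on the scaling. With library totals only, Lpcat3 was at -0.65 (adjusted p = 1.35e-05) and Pla2g7 at -0.59 (adjusted p = 0.000101), both called lower, Lpcat1 was at 0.06 and no longer called (adjusted p = 0.631), and Lpcat2 was at 0.37 (adjusted p = 0.0174), against a median of all genes of -0.77.

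**Figure D2:**
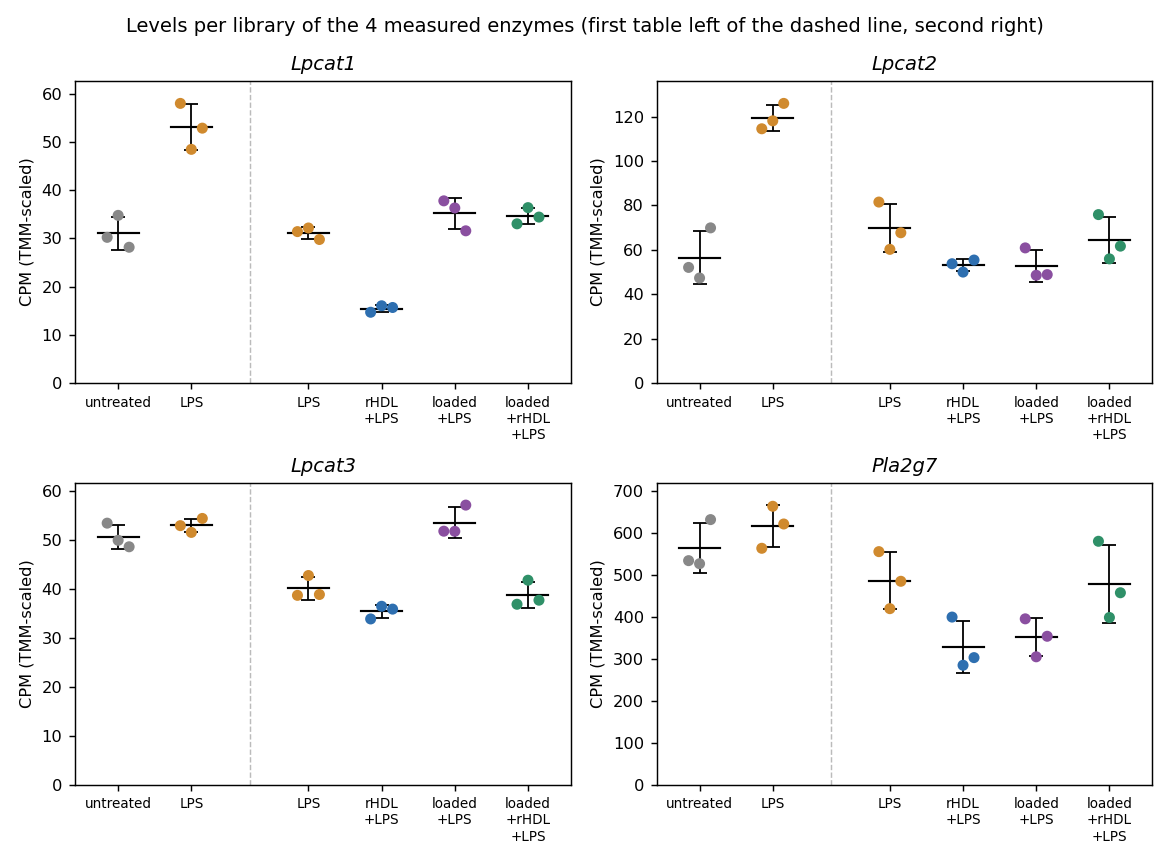
CPM (vertical axis, linear from 0, TMM-scaled within each table) of Lpcat1, Lpcat2, Lpcat3 and Pla2g7 in each library (points) by group, with the mean (wide bar) and SD (error bars, n = 3). The 3 rHDL points of Lpcat1, from 14.7 to 16.01 CPM, lie below all others of that gene, the Lpcat3 points of loaded cells without rHDL (51.7 to 57.1 CPM) lie above the other groups of the second table, and replicate 1 is the highest of its group for Pla2g7 in all 4 groups of that table.

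rHDL before LPS, in cells that had not been loaded, was accompanied by lower levels of Lpcat1, Lpcat2 and Pla2g7. Lpcat1 was at 31.4, 32.1 and 29.8 CPM with LPS alone and at 14.7, 16.01 and 15.7 CPM with rHDL, which is 0.496 times the level without it. The groups were far apart (-1.01 ± 0.09, adjusted p = 8.28e-07, edgeR). In the authors' deposited table for this comparison, Lpcat1 was the only member listed, with a log2 fold change of -1.02 and a ratio of RPKM values of 0.539. By its name that table was cut at 1.5-fold, so a member missing from it may only have changed less.

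Pla2g7, which breaks down platelet-activating factor, was at 556, 420 and 485 CPM with LPS alone and at 400.0, 285 and 303 CPM with rHDL. All 3 rHDL libraries lay below the lowest LPS library, although rHDL replicate 1 came close to it (-0.56 ± 0.15, adjusted p = 0.00996). Without LPS replicate 1 the change was -0.46 and the call was lost (adjusted p = 0.0559). Lpcat2 was at 81.5, 60.2 and 67.7 CPM with LPS alone and at 53.7, 50.0 and 55.4 CPM with rHDL, again without overlap (-0.39 ± 0.13, adjusted p = 0.0248). Its call was lost without LPS replicate 1 (-0.27, adjusted p = 0.147), without rHDL replicate 2 (-0.36, adjusted p = 0.0806) and with library totals only (-0.28, adjusted p = 0.0573).

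Lpcat3 was at 38.6, 42.7 and 38.8 CPM with LPS alone and at 33.8, 36.4 and 35.8 CPM with rHDL. The ranges did not overlap, but the difference did not pass (-0.18 ± 0.08, adjusted p = 0.0789). It passed only with the replicate number as a block (-0.18, adjusted p = 0.0419, edgeR). The 3 members called lower, of 4 tested, stand beside 18.4% of all 8965 genes called lower and 36.5% called in either direction. That count was 1 without LPS replicate 1. The members' median difference was -0.48 against 0.03 for all genes.

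Macrophage markers moved in the same comparison. Their summed level was 8145 to 8476 CPM per library with LPS alone and 5937 to 6208 CPM with rHDL. Csf1r, the growth factor receptor of macrophages, was at -0.84 on the log2 scale, Fcgr1 at -2.60, Mertk at -1.34 and Emr1 at -0.55, while Cd68 was at 0.51 and Cd14 at 0.14. Dendritic cell markers summed to 69.8 to 94.4 CPM with LPS alone and 102 to 117 CPM with rHDL. Nearly all of it was Itgax, which was not called (0.45, adjusted p = 0.0987, edgeR). Flt3, Zbtb46, Cd209a and Siglech were under 1 CPM in the mean of each group. Stromal and endothelial markers summed to 57.7 to 59.6 and 108 to 135 CPM, mainly from Vwf. Neutrophil markers summed to 13.1 to 15.98 and 3.24 to 5.15 CPM, and the mast, erythroid and megakaryocyte list to 54.3 to 61.2 and 32.1 to 43.2 CPM, most of it Pf4. In both groups Cxcr2 of the neutrophil list and Cpa3 and Mcpt4 of the last list were at 0. S100a9, Pecam1 and Hbb-bs were also at 0 but had only 0.573%, 1.73% and 1.41% of their exon bases to themselves, so they could hardly be counted. The part of any of these cell types in the members' differences was not tested.

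Cholesterol loading without rHDL was accompanied by higher Lpcat3 and, in the main edgeR fit, by no call for the other 3 members. Macrophage markers summed to 7645 to 8142 CPM per library after loading, against 8145 to 8476 CPM, with Csf1r at -0.24 (adjusted p = 0.0310, edgeR). Fcgr1 was at -0.37 and Cd14 at -0.13, while Mertk was at 0.39, Cd68 at 0.15 and Emr1 at 0.07, none of them called. Neutrophil markers summed to 8.24 to 10.5 CPM, against 13.1 to 15.98 CPM. Of these only S100a8 was called (-0.92, adjusted p = 0.0152), and the part of these markers' cells was not tested. Lpcat3 was at 51.7, 51.7 and 57.1 CPM after loading, against 38.6, 42.7 and 38.8 CPM with LPS alone. The groups did not overlap (0.42 ± 0.08, a factor of 1.33, adjusted p = 0.00400, edgeR), and all 6 fits that left out a library kept the call. Lpcat1 was at 37.8, 36.3 and 31.6 CPM after loading, overlapping the LPS libraries (0.18 ± 0.08, adjusted p = 0.213).

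Pla2g7 was at 396, 305 and 354 CPM after loading, below all 3 libraries with LPS alone (-0.47 ± 0.15, adjusted p = 0.0775). Lpcat2 was at 60.9, 48.5 and 48.8 CPM, where replicate 1 just reached into the LPS range (-0.40 ± 0.13, adjusted p = 0.0736). Neither passed, but both did with DESeq2 (adjusted p = 0.0373 for Pla2g7 and 0.0406 for Lpcat2) and in the fit of these 2 groups alone (0.0178 and 0.0467), and Lpcat2 also passed without LPS replicate 2 (-0.50, adjusted p = 0.0419) or loaded LPS replicate 1 (-0.52, adjusted p = 0.0462). Both passed too in edgeR with no filter on low counts (adjusted p = 0.0035 for Pla2g7 and 0.0115 for Lpcat2) and with the replicate number as a block (1.83e-05 and 0.0013). The 1 member called higher, of 4 tested, stands beside 3.99% of all genes called higher, 4.57% called lower and 8.57% called in either direction.

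After loading, rHDL was accompanied by lower Lpcat3 and, in the main edgeR fit, by no call for the others. Lpcat3 went from 51.7, 51.7 and 57.1 CPM in loaded cells to 36.8, 41.7 and 37.6 CPM in loaded cells with rHDL. The ranges were well apart (-0.47 ± 0.08, a factor of 0.723, adjusted p = 0.00773, edgeR). This call ended when loaded LPS replicate 3 was left out (-0.42, adjusted p = 0.0581, edgeR) and in the fit of these 2 groups alone (-0.47, adjusted p = 0.0563).

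Lpcat1, which showed the widest drop with rHDL in unloaded cells, was at 33.0, 36.4 and 34.4 CPM in loaded cells with rHDL. These libraries lay among those of loaded cells without it (-0.03 ± 0.08, adjusted p = 0.928). Pla2g7 was at 581, 399 and 458 CPM, above all 3 loaded libraries without rHDL (0.45 ± 0.15, adjusted p = 0.227). Lpcat2 was at 75.9, 55.9 and 61.7 CPM and overlapped them (0.29 ± 0.13, adjusted p = 0.397). Pla2g7 was called higher with no filter on low counts (0.45, adjusted p = 0.0191, edgeR). With the replicate number as a block, Pla2g7 (0.44, adjusted p = 0.000172) and Lpcat2 (0.29, adjusted p = 0.0329) were both called higher. No label says that a replicate number marks a pair, although same-numbered libraries of the second table were more often alike than others. The 1 member called lower stands beside 0.591% of all genes called lower and 1.02% called in either direction. The authors' deposited table for this comparison, by its name also cut at 1.5-fold, listed none of the members. Macrophage markers summed to 7645 to 8142 CPM per library in loaded cells and to 7614 to 8081 CPM in loaded cells with rHDL.

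The rHDL effect differed between loaded and unloaded cells for 3 of the 4 members. The difference, loaded minus unloaded, was 0.98 ± 0.12 for Lpcat1 (adjusted p = 4.35e-05, edgeR). It was 1.01 ± 0.22 for Pla2g7 (adjusted p = 0.00298), whose estimate was negative in unloaded and positive in loaded cells, and 0.68 ± 0.18 for Lpcat2 (adjusted p = 0.0108). These 3 calls held in all 12 fits that left out a library. For Lpcat3 the difference was -0.29 ± 0.11 (adjusted p = 0.0597), and it passed with library totals only (-0.45, adjusted p = 0.0175), without LPS replicate 2 (-0.33, adjusted p = 0.0425) and without loaded rHDL replicate 2 (-0.33, adjusted p = 0.0321). It also passed with the replicate number as a block (-0.29, adjusted p = 0.0257). The 3 members called higher stand beside 16% of all genes called higher and 30.2% called in either direction. Among macrophage markers, the same difference was 0.88 for Csf1r, 2.79 for Fcgr1, 1.23 for Mertk, 0.47 for Emr1, -0.59 for Cd68 and -0.11 for Cd14, and the part of such genes' cells in the members' differences was not tested.

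**Figure D3:**
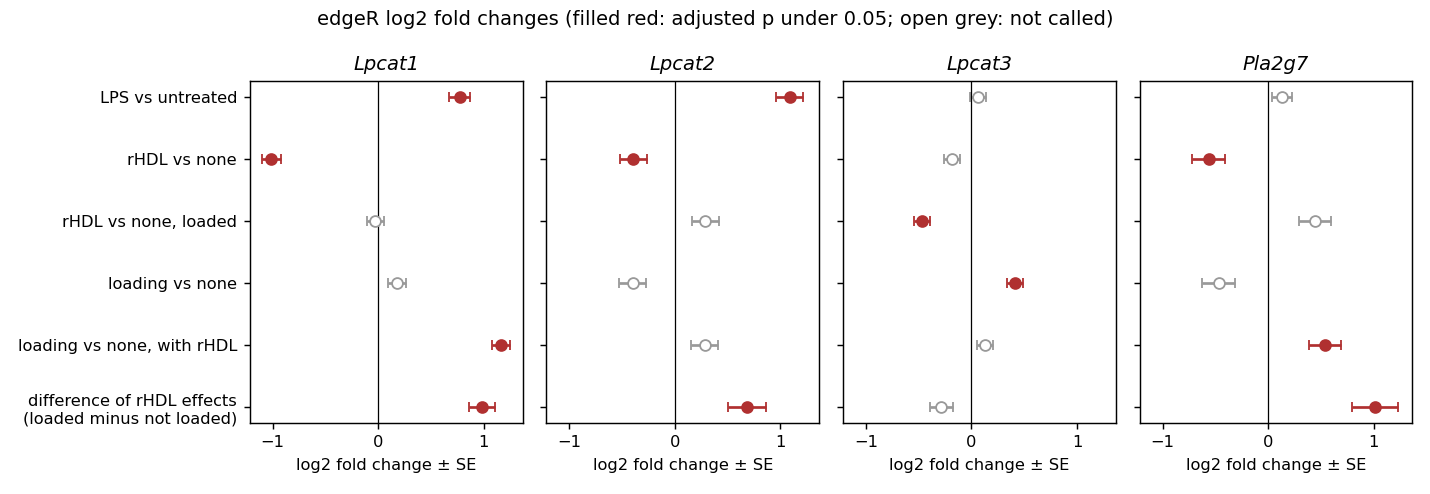
Log2 fold change ± SE (horizontal axis, edgeR) of the 4 measured enzymes in the 6 comparisons (rows), filled red where the adjusted p is under 0.05 and open grey otherwise. Lpcat1 is at -1.01 for rHDL in unloaded cells and at -0.03 in loaded cells, whereas Lpcat3 is at -0.18 and -0.47. Rows of the second table share control libraries.

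Loading was also compared within rHDL-treated cells, where Lpcat1 was again the member with the widest change. It rose from 15.4 ± 0.696 to 34.6 ± 1.69 CPM (SD, n = 3), a factor of 2.24 (1.16 ± 0.09, adjusted p = 1.91e-07, edgeR). Pla2g7 rose from 329 ± 61.8 to 479 ± 92.8 CPM (0.54 ± 0.15, adjusted p = 0.0130), although the lowest loaded library, at 399 CPM, was level with the highest unloaded one. Its call was lost without rHDL replicate 2 (0.45, adjusted p = 0.0632), rHDL replicate 3 (0.48, adjusted p = 0.0583) or loaded rHDL replicate 1 (0.38, adjusted p = 0.0624). Lpcat2 (0.28 ± 0.13, adjusted p = 0.0991) and Lpcat3 (0.13 ± 0.08, adjusted p = 0.205) did not pass, although Lpcat2 did without loaded rHDL replicate 2 (0.38, adjusted p = 0.0347). Lpcat2 also passed with no filter on low counts (0.28, adjusted p = 0.0483) and with the replicate number as a block (0.27, adjusted p = 0.00545). The 2 members called higher stand beside 18.5% of all genes called higher and 35.6% called in either direction. This comparison shares its rHDL libraries with that of rHDL in unloaded cells, so the 2 are not independent. Among macrophage markers, Csf1r (0.63), Emr1 (0.54), Fcgr1 (2.42) and Mertk (1.62) were higher in the same comparison, and Cd68 (-0.44) and Cd14 (-0.24) were lower. Stromal and endothelial markers summed to 108 to 135 CPM with rHDL and to 34.5 to 42.8 CPM with loading and rHDL, mainly from Vwf (-1.73). The part of any of these cells was not tested. Tested against a minimum of 1.5-fold, Lpcat1 kept its call with LPS, rHDL, loading in rHDL-treated cells and the difference, Lpcat2 kept its call with LPS, and no other call of a member passed.

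Over the 4 groups of the second table, the members ordered the groups differently. Lpcat1 was lowest with rHDL at 15.4 CPM and then stood at 31.1 ± 1.22 with LPS alone, 34.6 with loading and rHDL and 35.2 ± 3.25 with loading, where loading overlapped both LPS alone and loading with rHDL. Lpcat3 was lowest with rHDL at 35.3 ± 1.36, followed by loading and rHDL at 38.7 ± 2.63, LPS alone at 40.0 ± 2.29 and loading at 53.5 ± 3.08, where the middle 2 overlapped. Lpcat2 stood at 52.7 ± 7.03 with loading, 53.0 ± 2.77 with rHDL, 64.5 ± 10.3 with both and 69.8 ± 10.8 CPM with LPS alone, where loading overlapped each of the others and rHDL lay below the groups with both and with LPS alone. Pla2g7 stood at 329 with rHDL, 352 ± 45.3 with loading, 479 with both and 487 ± 68.1 with LPS alone, where rHDL overlapped loading and both treatments, and both treatments overlapped LPS alone. Replicate 1 was the highest of its group for Pla2g7 in all 4 groups and for Lpcat2 in 3 of them.

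The LPS-only groups of the 2 tables were not tested against each other. Lpcat1 averaged 53.1 ± 4.77 CPM in the first and 31.1 CPM in the second, Lpcat2 120 ± 5.85 and 69.8 CPM, Lpcat3 52.9 ± 1.43 and 40.0 CPM, and Pla2g7 617 ± 50.3 and 487 CPM. The tables were scaled apart, and these levels are given side by side only.

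Among 12 libraries of the second table, Lpcat2 and Pla2g7 had the closest profiles of any pair of members, with a Pearson correlation of 0.90 for log2 CPM. Over the 6 libraries of the first table that pair stood at 0.69, and Lpcat1 and Lpcat2 were closest at 0.85, against 0.32 in the second. In the second and the first table, Lpcat1 and Lpcat3 stood at 0.61 and 0.60, and Lpcat2 and Lpcat3 at -0.36 and 0.45. Such correlations describe libraries that share treatments and depth and carry no test. Among genes with a mean of at least 3 log2 CPM, those most like Lpcat1 over the 12 libraries were St3gal4, Thbs1 and Itga9 (each 0.98), of which St3gal4 was at -0.72 in the first table and Thbs1 and Itga9 at 0.87 and 0.96. Those most like Lpcat2 were Tbk1 (0.95) and Ttc39c (0.92), with 0.96 and 0.97 in the first table. Those most like Pla2g7 were Ogfr (0.98), Trim12a (0.97) and Ifi205 (0.97), with 0.53, 0.56 and 0.51. Those most like Lpcat3 were Irak4 (0.93), Galnt10 (0.92) and Vti1a (0.92), with -0.55, 0.68 and 0.43.

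The other 69 genes of phospholipid metabolism fell into 5 lists. For LPS 54 of these genes could be tested, and 50 could be tested in the second table. With LPS, 26 of 54 rose and 10 fell (66.7% called, against 72.9% of all genes, and median 0.34 against -0.05). Of all genes 35.3% rose and 37.6% fell, which is the background for each list's count below. In the choline and ethanolamine branch 4 of 8 rose and 1 fell. Etnk1, an ethanolamine kinase, went from 183 ± 17.3 to 1059.8 ± 87.0 CPM (2.53 ± 0.10), Slc44a1, a choline transporter with 46.2% of its exon bases to itself, from 27.0 ± 1.60 to 109 ± 4.84 (2.01 ± 0.08), and Cept1, which joins CDP-choline or CDP-ethanolamine to diacylglycerol, from 104 ± 2.62 to 373 ± 28.4 (1.84 ± 0.08). Their adjusted p were 1.87e-09, 2.68e-09 and 4.31e-09.

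Among genes of phosphatidic acid and diacylglycerol 7 of 13 rose and 3 fell with LPS. Ppap2b, a lipid phosphate phosphatase, changed by 2.55 ± 0.09, Gpam, which starts glycerolipid synthesis at mitochondria, by -1.12 ± 0.14, and Dgkz, a diacylglycerol kinase measured on 26.6% of its exon bases, by -1.83 ± 0.17. In the branch of phosphatidylserine, inositol and cardiolipin 5 of 8 rose and 1 fell, with Pgs1 (1.65 ± 0.10), on the route to cardiolipin, and Cds1 (1.65 ± 0.10) named by their p. Of the other acyl remodelling enzymes 4 of 7 rose and 1 fell, and the acyl-CoA synthetases Acsl1 (3.52 ± 0.09) and Acsl5 (1.40 ± 0.07), which supply acyl chains, had the smallest p. Of the phospholipases and platelet-activating factor genes 6 of 18 rose and 4 fell. Pla2g16 (3.40 ± 0.16) and Pla2g4a, the cytosolic phospholipase that releases arachidonic acid (1.95 ± 0.10), had the smallest p, and Pafah1b1, a subunit of the intracellular platelet-activating factor hydrolase measured on 16.9% of its exon bases, changed by 1.03 ± 0.14 but by 0.31 with library totals, where its call ended (adjusted p = 0.0641). The other named genes kept their direction and call under that scaling.

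With rHDL in unloaded cells, 9 of the 50 rose and 12 fell (42.0% called, against 36.5% of all genes, and median 0.02 against 0.03). Pcyt2, which activates ethanolamine as Pcyt1a activates choline, was at 23.9, 29.4 and 24.7 CPM with LPS alone and at 54.2, 53.2 and 52.5 CPM with rHDL. The libraries were well apart (1.03 ± 0.10, adjusted p = 2.68e-06, edgeR). In its branch 2 of 7 rose and 3 fell. Dgka, a diacylglycerol kinase, was at 52.8, 54.3 and 54.8 CPM with LPS alone and at 19.2, 17.3 and 18.3 CPM with rHDL. The groups were far apart (-1.56 ± 0.08, adjusted p = 9.65e-09). In its list, 2 of 12 rose and 2 fell.

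Of the phospholipases and platelet-activating factor genes, 4 of 17 were called higher with rHDL and 4 lower, beside 18.1% and 18.4% of all genes. Pla2g4a went from 378 ± 22.6 to 184 ± 16.7 CPM (-1.04 ± 0.08, adjusted p = 2.69e-07), without overlap. Pla2g16, another phospholipase A, went from 59.6 ± 10.3 to 27.997 ± 7.19 CPM (-1.08 ± 0.21, adjusted p = 0.000873). Plbd1, a phospholipase B-like protein, went from 3.87 ± 0.759 to 0.944 ± 0.156 CPM (-2.01 ± 0.25, adjusted p = 1.92e-05). Of the other acyl remodelling enzymes 2 of 6 fell and none rose, and in the remaining branch 1 of 8 rose and 1 fell. The authors' deposited table for this comparison, by its name cut at 1.5-fold, listed 11 of the 69 genes, among them Pcyt2 (1.02), Dgka (-1.57) and Pla2g4a (-1.05).

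**Figure D4:**
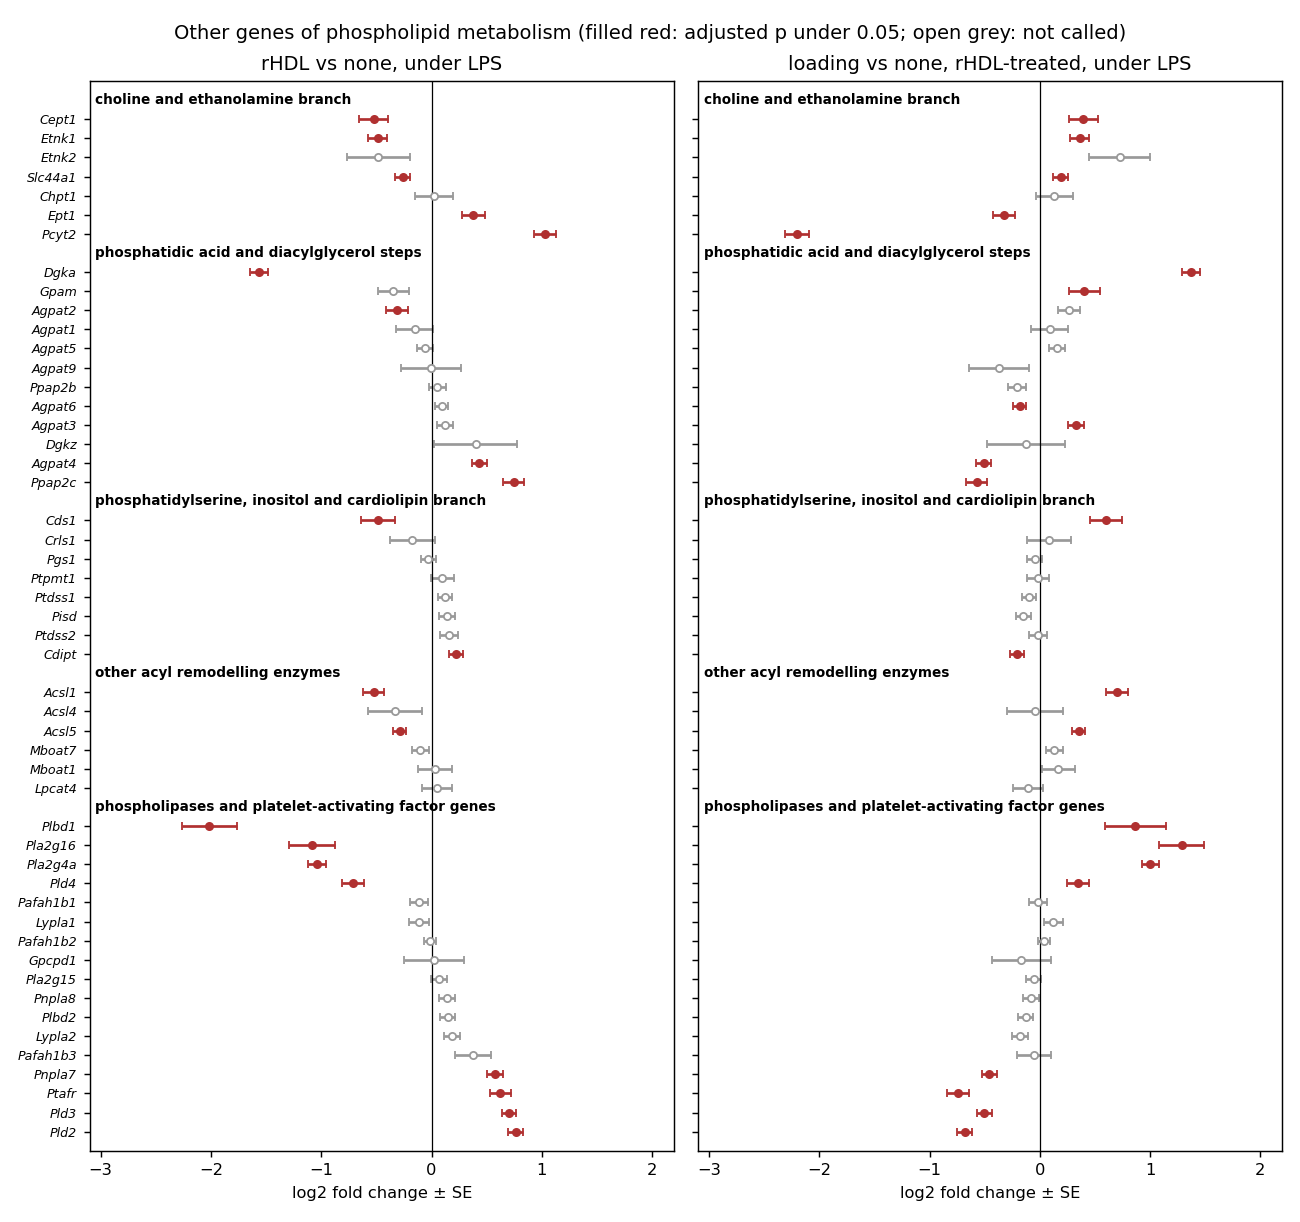
Log2 fold change ± SE (horizontal axis, edgeR) of the 50 other genes of phospholipid metabolism tested in the second table, by list and sorted on the left panel, for rHDL against none (left) and for loading against none in rHDL-treated cells (right), filled red where the adjusted p is under 0.05. On the left 9 genes are called higher and 12 lower, and on the right 13 higher and 10 lower, and the panels share the rHDL libraries.

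Loading without rHDL was accompanied by calls for 4 of the 50 genes (8.0%, against 8.57% of all genes), 1 higher and 3 lower. Pcyt2 was at 9.63, 10.9 and 10.7 CPM after loading, below all libraries with LPS alone (-1.33 ± 0.12, adjusted p = 7.02e-06, edgeR). The other 3, taken only to spell out this count after their values were seen, were Agpat3, an acyltransferase of phosphatidic acid synthesis (0.52 ± 0.07, adjusted p = 0.000399), Dgka (-0.34 ± 0.08, adjusted p = 0.0151) and Slc44a1 (-0.32 ± 0.07, adjusted p = 0.00889). With library totals only, the calls of Dgka (-0.27, adjusted p = 0.0853) and Slc44a1 (-0.25, adjusted p = 0.0782) were lost. Dgka also lost its call without LPS replicate 3 (adjusted p = 0.0623) or loaded LPS replicate 1 (adjusted p = 0.0721), and Slc44a1 without loaded LPS replicate 3 (adjusted p = 0.0507). In loaded cells, rHDL was accompanied by no call among the 50 genes in the main edgeR fit, against 1.02% of all genes. At an unadjusted p under 0.05 stood 6 of them, beside 1044 of all 8965 genes. Of the listed genes 1 was called by DESeq2 and 1 with no filter on low counts. Without loaded rHDL replicate 1 the count was 2, and with the replicate number as a block 3. Pcyt2 there was at 9.85, 13.4 and 11.5 CPM, overlapping the loaded cells without rHDL.

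Loading within rHDL-treated cells gave 13 higher and 10 lower of the 50 (46.0% called, against 35.6% of all genes). Pcyt2 went from 53.3 ± 0.827 to 11.6 ± 1.79 CPM (-2.20 ± 0.11, adjusted p = 3.29e-09, edgeR), the widest change of any listed gene there. Dgka changed by 1.37 ± 0.08, Pla2g4a by 1.00 ± 0.08 and Pla2g16 by 1.29 ± 0.20, each with no overlap of libraries. The difference between rHDL effects was called for 22 of the 50 genes, 11 in each direction (44.0%, against 30.2% of all genes). It was 1.72 ± 0.11 for Dgka (adjusted p = 3.94e-07) and 1.07 ± 0.11 for Pla2g4a (adjusted p = 1.21e-05). For Pcyt2, named here because it is followed above, it was -0.88 ± 0.16 (adjusted p = 0.000976). In the LPS-only groups of the 2 tables, Dgka averaged 16.8 ± 1.73 and 54.0 ± 1.06 CPM and Pla2g4a 91.6 ± 5.31 and 378 CPM, without a test.

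**Figure D5:**
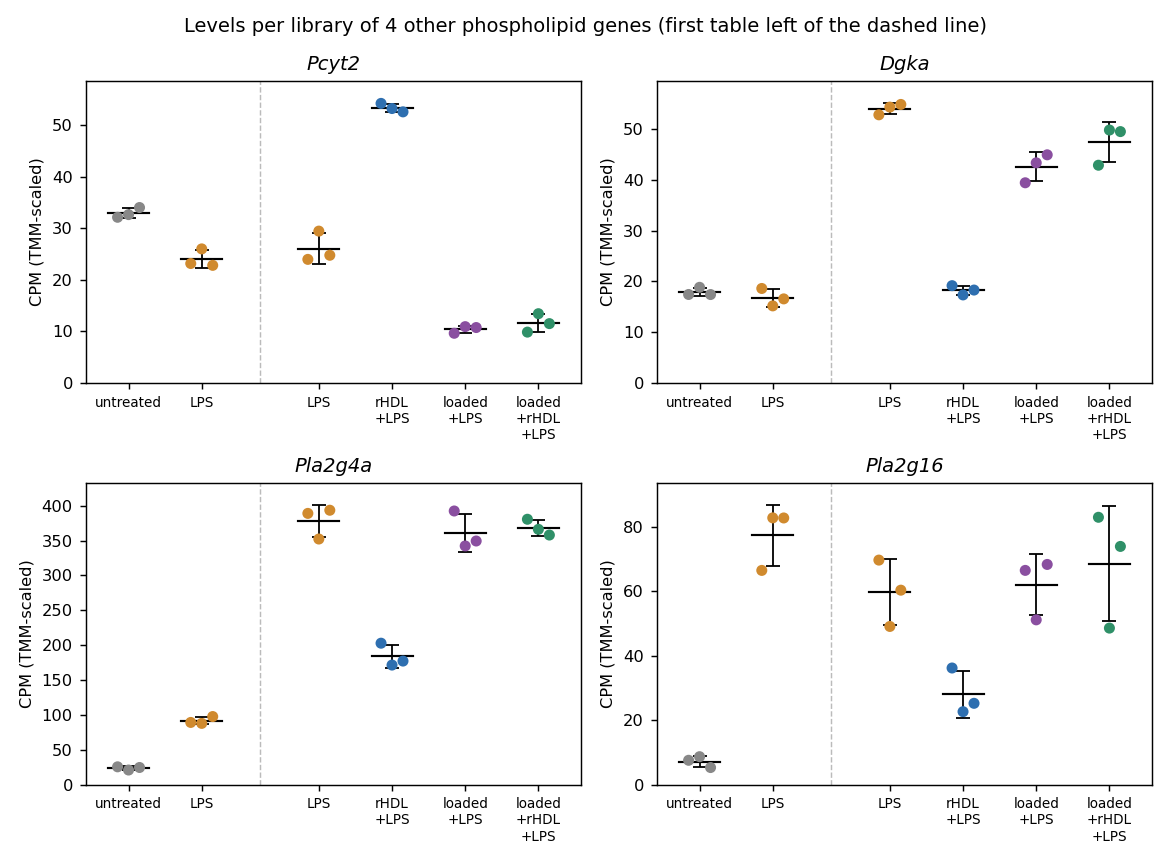
CPM (vertical axis, linear from 0, TMM-scaled within each table) of Pcyt2, Dgka, Pla2g4a and Pla2g16 in each library (points) by group, with the mean (wide bar) and SD (error bars, n = 3). Pcyt2 is highest with rHDL (52.5 to 54.2 CPM) and lowest in both loaded groups, while the rHDL points of Dgka, Pla2g4a and Pla2g16 lie below the other groups of the second table.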

How the data were processed

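Gene expression had been measured by RNA-seq of poly-A RNA. Per the submitters' processing notes, reads were trimmed with cutadapt, aligned to mm10 with HISAT2 and counted with featureCounts of Subread, and comparisons were made with DESeq2. Their versions were not given in those notes. The deposited tables hold raw counts per transcript row, not normalised by the authors (32850 rows). In the comparison tables that the authors deposited are a log2 fold change, p-value and adjusted p-value, a test statistic and a mean count (scores not used here) and a ratio of RPKM values.

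Rows were summed per symbol and tested with edgeR 4.0.16 (quasi-likelihood F test) in R 4.3.3, after filterByExpr (minimum count 10, 9576 and 8965 genes) and TMM scaling. The tables were fitted apart, and the 12 libraries of the second shared 1 fit. The SE is the log2 fold change divided by the square root of F. A gene was called at an adjusted p under 0.05 over all genes. Replicate pairs differed by more than sampling noise (chi-square per degree of freedom 2.84 to 31.9). The code was tested on simulated data. Alternatives were DESeq2 1.42.0, other scaling, filters, fits, row choices and each library left out.

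The members and gene lists were chosen with earlier results of these data known. All members are named, with up to 3 other genes per list and comparison (smallest p among called genes whose absolute log2 change reached 1), and for likeness up to 3 genes per member by Pearson correlation of log2 CPM (prior count 2), passing over predicted genes. A few genes that these rules or the marker lists would name are not reported here. Promoter windows and symbols come from RefSeq (GRCm38.p6), and all 8 members matched.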

Additional observations from a re-analysis of the deposited data

Results flagged for a closer look

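The effect of rHDL differed between loaded and unloaded cells, by the test of the difference itself (loaded minus unloaded, log2 scale, edgeR), for 3 members, beside 30.2% of all genes called. It also differed for 11 of the 17 other genes of phospholipid metabolism named above, of which Agpat3 was named only to spell out a count. Dgka, Pla2g4a, Pla2g16 and Plbd1 were named partly by this same test, so the 11 of 17 cannot be set against the share of all genes. The members were Lpcat1 (0.98), Lpcat2 (0.68) and Pla2g7 (1.01). Among the others, the difference was positive for Dgka (1.72), Plbd1 (1.43), Pla2g16 (1.23), Pla2g4a (1.07), Acsl1 (0.87), Cept1 (0.68), Cds1 (0.58), Etnk1 (0.58), Slc44a1 (0.51) and Acsl5 (0.26). It was negative for Pcyt2 (-0.88). These values compare rHDL effects and do not say in which cells a gene had the higher level. These 11 were named for their change in some comparison, and over the 50 listed genes tested the 22 calls were 11 in each direction. The calls of Cds1 and Acsl5 held in 3 and 4 of the 12 fits that left out a library and were lost with library totals as the only scaling (0.41, adjusted p = 0.0989, and 0.090, adjusted p = 0.468, edgeR), while the calls of the other 9 held in all 12 of these fits. Among macrophage markers the difference was 0.88 for Csf1r, 0.47 for Emr1, 2.79 for Fcgr1 and 1.23 for Mertk, but -0.59 for Cd68 and -0.11 for Cd14, and their part was not tested.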

How the results depend on the processing

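Of 388 values of members under an alternative, 346 kept their direction and side of the threshold, 17 lost a call, 21 gained one and 4 changed sign. Sign changes were Lpcat3 (-0.65) and Pla2g7 (-0.59) for LPS with library totals, and Lpcat1 for rHDL after loading, which ranged from -0.10 to 0.031 over the libraries left out (0.031 without loaded LPS replicate 1 and 0.0091 without loaded rHDL replicate 1). Tested against 1.5-fold, all genes called numbered 4044 for LPS, 658 for rHDL, 5 for rHDL after loading, 32 for loading, 681 for loading in rHDL-treated cells and 592 for the difference, and members called numbered 2, 1, 0, 0, 1 and 1. For rHDL after loading, main count 91, genes called numbered 164 with DESeq2, 176 without a filter and 42 in the fit of these groups alone. For loading, main count 768, that fit gave 1216. Without a filter, members called numbered 4 for LPS (Lpcat1, Lpcat2, Pcyt1a and Lpin1), 2 for rHDL after loading and 3 for loading, and DESeq2 and the fit of the groups alone also gave 3 for loading. That fit gave 0 for rHDL after loading. Restricting the fit to genes of 1 row with no shared exon base drops Lpcat3 and Pla2g7, so members called became 0 for rHDL after loading, 0 for loading and 1 for loading in rHDL-treated cells.

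Leaving out a library gave 30 to 123 genes called for rHDL after loading and 350 to 594 for loading, with members called from 1 to 3 for rHDL, 0 to 1 for rHDL after loading, 1 to 2 for loading and 1 to 3 for loading in rHDL-treated cells. Genes called for rHDL after loading were 46, 30 and 35 without loaded LPS replicates 1, 2 and 3 and 55 and 56 without loaded rHDL replicates 2 and 3. For loading they were 365 and 381 without LPS replicates 1 and 3 and 477, 396 and 350 without loaded LPS replicates 1, 2 and 3.

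The libraries share replicate numbers, and no label says that a number marks a pair. Among the second table's libraries, 13 of 18 same-numbered pairs had deviations correlated above 0.1 (-0.0302 to 0.436). For pairs of different numbers it was 4 of 36 (-0.338 to 0.11). The same-numbered pairs below 0.1 were all of replicate 3. Of these libraries, 9 of 12 correlated best with their own number. Among the first table's libraries, it was 0 of 3 same-numbered pairs and 2 of 6 others. Likeness thus went with the replicate number among the second table's libraries, and the main fit had no term for that number. With the replicate number as a block, genes called rose to 486 for rHDL after loading and 1651 for loading, and members called to 3 and 3. The calls gained were Lpcat2 (0.29) and Pla2g7 (0.44) for rHDL after loading, both for loading (-0.40 and -0.47), Lpcat2 for loading in rHDL-treated cells (0.27), and Lpcat3 for rHDL (-0.18) and for the difference (-0.29). The cause of the changes other than those from fewer samples or genes was not tested. For the 4 enzymes with few exon bases of their own, depth gives no measurement.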
